A study of Mus musculus with 8 samples.

Results

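The genes described here encode the class IA and IB phosphoinositide 3-kinase (PI3K) subunits and the AKT kinases on which they act, and they were picked as a family by gene name, with earlier results of these data known. The 9 genes were the catalytic subunits Pik3ca, Pik3cb, Pik3cd and Pik3cg, the regulatory subunits Pik3r1, Pik3r2 and Pik3r3, and the kinases Akt1 and Akt2. They are 9 of the 27179 genes in the table, and all 9 were among the 14382 genes that passed the filter on low counts and were tested.

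The libraries were from whole primary tumours of the metastatic murine mammary carcinoma line 4T1.13, grown in the mammary fat pad of female BALB/c mice and recovered at day 14 after injection of 100000 cells according to the sample labels. The 4 vector control (VC) tumours and the 4 miR-21-KD tumours came from cells that carried the same miArrest lentiviral vector, with mCherry, hygromycin B resistance and an H1 promoter. In the miR-21-KD cells the vector made an RNA decoy that binds and withholds mature miR-21, and in the VC cells a scrambled sequence that does not. Each line was a pool of several single-cell clones, so the comparison is between 1 pool of each kind, and the host mice kept their own miR-21. The labels place recovery at the time when regression of the miR-21-KD tumours began. The Mir21a gene, which encodes the miR-21 hairpin, had a count of 0 in all 8 tumours, so the knockdown could not be checked in this table, which does not measure mature miRNA. Nothing in the labels says more of the separate mice, and the p-values therefore measure the spread between these tumours.

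Class I PI3K enzymes are heterodimers that phosphorylate the membrane lipid PIP2 to PIP3, and PIP3 recruits AKT to the membrane, where PDK1 and the mTORC2 complex activate it. Class IA enzymes join p110alpha, p110beta or p110delta to a p85 or p55 regulatory subunit and act downstream of receptor tyrosine kinases, whereas the class IB enzyme joins p110gamma to p101 or p84 and acts downstream of G protein-coupled receptors. The alpha and beta isoforms are made by most cells and the delta and gamma isoforms mainly by leukocytes, and lipid phosphatases limit how long the signal lasts.

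MiR-21 is shown first, since the tumours differ by its sequestration and its seed decides which of the 9 transcripts hold a match. The mature mmu-miR-21a-5p, credited to RefSeq, lies at chr11:86584120-86584141 on the minus strand of GRCm38.p6, and its seed (bases 2 to 8) is in capitals below.
mmu-miR-21a-5p: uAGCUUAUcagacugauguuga
The sense strand of the longest annotated 3′ UTR of each gene (GENCODE vM21) was searched for ATAAGCTA (the 8mer), for ATAAGCT (the 7mer-m8) and for TAAGCTA (the 7mer-A1), and a 7-base match inside an 8mer was counted as the 8mer. Matches were found in Pik3r1 and Pik3ca and in none of the other 7 members.

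The 3′ UTR of Pik3r1 (4317 bases) held 4 matches. The 7mer-m8 matches began at UTR bases 904 and 1156, at chr13:101683970-101683976 and chr13:101683718-101683724. The 7mer-A1 matches began at bases 2400 and 2937, at chr13:101682474-101682480 and chr13:101681937-101681943. The gene lies on the minus strand, and the matching bases are in capitals.
Pik3r1, base 904: cacctttggaATAAGCTtccctta
Pik3r1, base 1156: cagggccctgATAAGCTtcaaagc
Pik3r1, base 2400: atacttatttgTAAGCTAggtttg
Pik3r1, base 2937: cagccagacacTAAGCTAgactat
The 3′ UTR of Pik3ca (5655 bases, plus strand) held 2 matches of the 7mer-A1 kind, at chr3:32463249-32463255 and chr3:32464167-32464173.
Pik3ca, base 418: ataggtctgagTAAGCTAaagctt
Pik3ca, base 1336: ttttaccttcgTAAGCTAcgtatc

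A match of at least 7 bases was thus held by 2 of the 9 members (22.2%), by 13 of 57 other PI3K pathway genes (22.8%) and by 1630 of the 13219 tested genes with a 3′ UTR (12.3%). Member UTRs were longer, with a median of 2685 bases against 1171 for all of these genes. At least 4 matches were found in 4 of the 13219 UTRs (0.0303%), Pik3r1 included, and in 2 of the 837 UTRs (0.239%) that were as long as that of Pik3r1 or longer. The letters are a description of the sequence, and binding of miR-21 to them was not measured. Of the 1630 tested genes with a match of at least 7 bases, 20.2% were higher in miR-21-KD tumours and 20.1% were lower, against 20.4% and 20% of the 11589 genes with no match. The shares were 22% and 19.1% for the 1025 genes with a 7mer-m8 or 8mer, and 22.7% and 17.9% for the 837 genes with a UTR as long as that of Pik3r1 or longer, whatever their matches.

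Between 12134849 and 13592695 reads were counted on genes in each tumour. Levels are given as CPM, the counts scaled to a common library size by each library's total and TMM factor. Changes are log2 fold changes of miR-21-KD over VC from the quasi-likelihood test of edgeR, with the standard error (SE) in parentheses and Benjamini-Hochberg adjusted p-values over all tested genes, called under 0.05. The first principal component, with 67.5% of the variance, separated the groups. Among the controls, VC tumour 4 stood apart in leukocyte genes: its summed level of 4 B cell markers was 140.6 CPM, against 1.755 to 4.941 CPM in the other VC tumours. MiR-21-KD tumour 4 stood apart in the same markers, at 60.4 CPM against 8.522 to 13.1 CPM in the other miR-21-KD tumours. Member results are also given without VC tumour 4 where that omission changed them, and without miR-21-KD tumour 4 the called members were 3 higher and 0 lower, with Pik3cd at 0.86 (adjusted p = 0.0482), Pik3r1 at 0.88 (0.0254) and Pik3r3 at 1.16 (0.0387) on the log2 scale. The tumours are numbered 1 to 4 in both groups, and tumours of the same number deviated together from their group means, so values with the number as a block are given where the block changed the call of a gene described here.

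Of the 9 members, 3 were higher in miR-21-KD tumours and 0 were lower: Pik3cd, Pik3r1 and Pik3r3. Among all tested genes 39.1% passed the test, 19.6% higher and 19.5% lower. By an unadjusted p under 0.05, 5 members were higher and 1 was lower, against 50.7% of all genes, 25.3% higher and 25.4% lower. The median log2 fold change of the 9 was 0.46, against -0.01 over all tested genes. With the block, 5 members were higher and 1 was lower, against 45.1% of all genes, 23% higher and 22.1% lower. DESeq2 called 5 higher and 0 lower, against 45.7% of all genes, 24% higher and 21.7% lower.

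**Figure D1:**
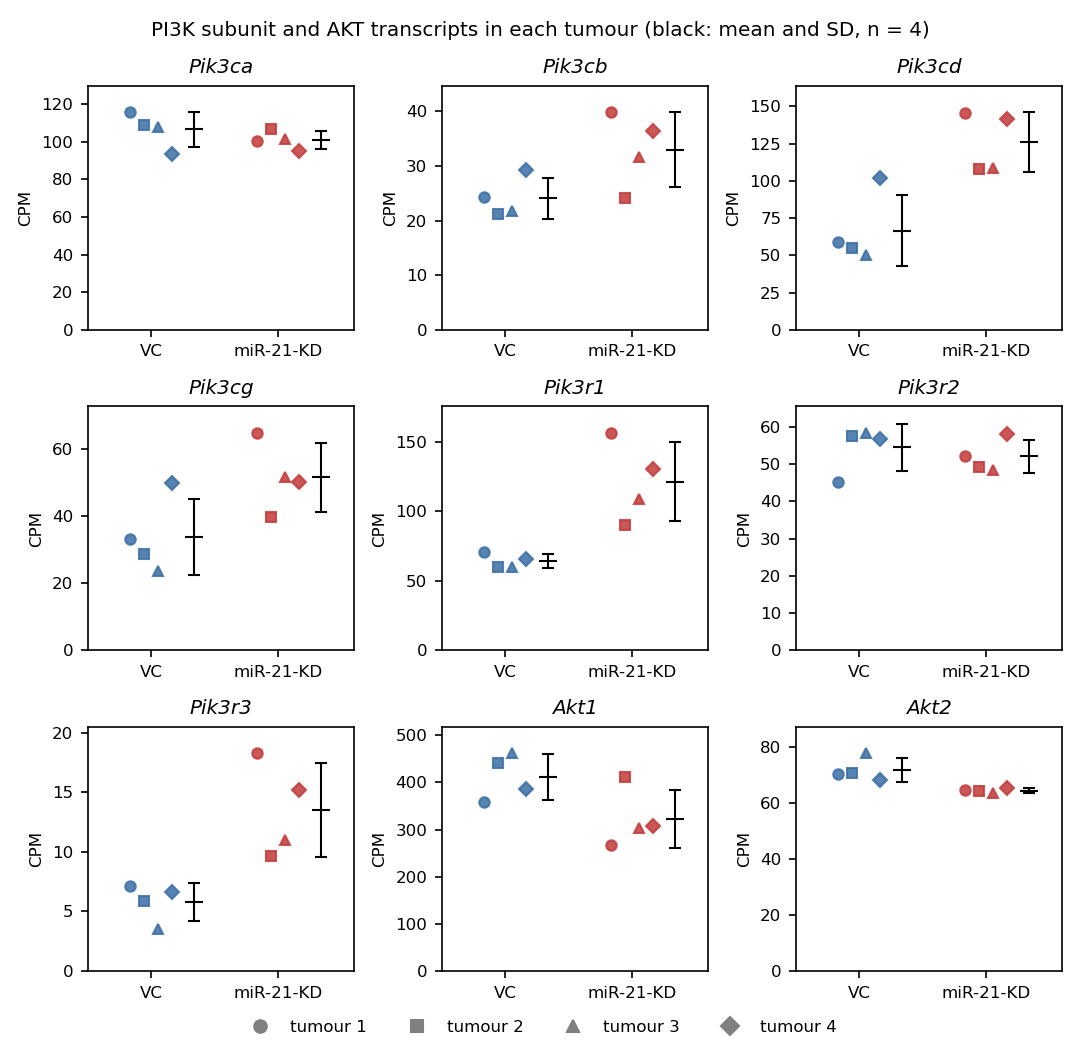
CPM of each of the 9 members in both groups (VC, n = 4; miR-21-KD, n = 4), 1 point per tumour, with the group mean and SD. Every miR-21-KD point lies above every VC point for Pik3cd, Pik3r1 and Pik3r3, whereas the points of Pik3ca and Pik3r2 overlap.

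Among the catalytic subunits, Pik3cd showed the largest fold change and passed the test. Pik3cd (Entrez 18707, chr4:149649168-149702566) encodes p110delta, the isoform best known from lymphocytes. Its level was 58.85, 55.29, 50.44 and 102.1 CPM in VC tumours 1 to 4 and 145.3, 108.1, 108.8 and 141.6 CPM in miR-21-KD tumours 1 to 4. All miR-21-KD tumours were above all VC tumours, although VC tumour 4 was only 5.98 CPM under the lowest of them. The means were 66.7 ± 23.9 and 125.9 ± 20.3 CPM (SD, n = 4), a fold of 1.89, and the log2 fold change was 0.92 (SE 0.23, adjusted p = 0.0168). Without VC tumour 4 it was 1.19 (adjusted p = 0.00753). Without VC tumour 3 it was 0.80 and the call was lost (adjusted p = 0.0507).

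Pik3cg (Entrez 30955, chr12:32173397-32208677), which encodes p110gamma, the class IB isoform of myeloid cells, was less separated. Its level was 33.04, 28.8, 23.64 and 49.78 CPM in VC tumours and 64.83, 39.77, 51.62 and 50.02 CPM in miR-21-KD tumours, so that VC tumour 4 lay above miR-21-KD tumour 2. The log2 fold change was 0.61 (SE 0.24), which did not pass the test (adjusted p = 0.0681). With the block it was 0.64 (SE 0.20) and passed (adjusted p = 0.042), and without VC tumour 4 it was 0.85 (adjusted p = 0.0139). It also passed without miR-21-KD tumour 2 (adjusted p = 0.0435), but under no other omission of a single tumour (adjusted p = 0.114 to 0.165).

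Pik3cb (Entrez 74769, chr9:99038402-99140235) encodes p110beta, the broadly expressed isoform that also answers to G protein-coupled receptors. It had 24.26, 21.14, 21.67 and 29.18 CPM in VC tumours and 39.85, 24.13, 31.57 and 36.48 CPM in miR-21-KD tumours. The groups overlapped, since miR-21-KD tumour 2 lay below VC tumours 1 and 4. The log2 fold change of 0.46 (SE 0.17) did not pass the test (adjusted p = 0.064). It passed with the block at 0.44 (SE 0.11, adjusted p = 0.0239) and without VC tumour 4 at 0.55 (adjusted p = 0.0383). It also passed without miR-21-KD tumour 2 (adjusted p = 0.0134), but under no other omission of a single tumour (adjusted p = 0.1 to 0.157).

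Pik3ca (Entrez 18706, chr3:32397065-32466112) encodes p110alpha, the isoform most often mutated in breast cancer and the main one downstream of growth factor receptors. Its level was 115.6, 108.9, 107.9 and 93.27 CPM in VC tumours and 100.1, 106.7, 101.4 and 95.1 CPM in miR-21-KD tumours. The miR-21-KD values lay within the VC range, with means of 106.4 ± 9.39 and 100.8 ± 4.78 CPM (SD, n = 4) and a log2 fold change of -0.08 (SE 0.09, adjusted p = 0.489). Its 2 seed matches are those printed above.

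Of the regulatory subunits, Pik3r1 and Pik3r3 rose and Pik3r2 did not pass the test. Pik3r1 (Entrez 18708, chr13:101680761-101768217) encodes p85alpha and its short forms p55alpha and p50alpha, which stabilise the catalytic subunits and hold them at low activity until a receptor is engaged. Its level was 70.35, 60.23, 60.05 and 65.97 CPM in VC tumours and 156.4, 89.84, 108.5 and 130.2 CPM in miR-21-KD tumours. The VC tumours were close together, and the lowest miR-21-KD tumour, number 2, was still above all of them. The means were 64.1 ± 4.96 and 121.3 ± 28.7 CPM (SD, n = 4), a fold of 1.89, and the log2 fold change was 0.92 (SE 0.16, adjusted p = 0.00699). The gene passed the test with any single tumour omitted, at 0.77 to 1.03 on the log2 scale and adjusted p-values of 0.00146 to 0.028. Counts are per gene, so the forms of p85alpha cannot be told apart.

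Pik3r3 (Entrez 18710, chr4:116221400-116303056), which encodes p55gamma, was the lowest of the 9 in both groups. It had 7.153, 5.904, 3.546 and 6.621 CPM in VC tumours and 18.27, 9.668, 10.96 and 15.18 CPM in miR-21-KD tumours, with no overlap. Its log2 fold change was 1.22 (SE 0.28, adjusted p = 0.0128), a fold of 2.33, which lay between 1.03 and 1.34 with any single tumour omitted and passed the test each time. In GENCODE vM21, 1289 bases of its exons (24.3%) are also exons of Gm49337 on the same strand, and reads from those bases cannot be told apart.

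Pik3r2 (Entrez 18709, chr8:70768176-70776712), which encodes p85beta, had 45.06, 57.44, 58.4 and 56.81 CPM in VC tumours and 52.14, 49.28, 48.45 and 58.16 CPM in miR-21-KD tumours. VC tumour 1 was the lowest of all 8. The log2 fold change was -0.07 (SE 0.11, adjusted p = 0.646). Exons of the gene share 45 bases (1.08%) with 6330537M06Rik on the opposite strand.

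The AKT kinases had lower means in miR-21-KD tumours, and neither passed the test. Akt1 (Entrez 11651, chr12:112653821-112674884), a promoter of survival and growth, was the most abundant member, with 357.4, 441, 462.1 and 386.7 CPM in VC tumours and 267.9, 410.5, 303.9 and 307.1 CPM in miR-21-KD tumours. The miR-21-KD tumours other than tumour 2 were below every VC tumour. The log2 fold change was -0.35 (SE 0.15, adjusted p = 0.0865), and with the block it was -0.36 (SE 0.11) and passed (adjusted p = 0.0351). Without miR-21-KD tumour 2 it was -0.50 (adjusted p = 0.0118), and it passed under no other omission of a single tumour (adjusted p = 0.078 to 0.202).

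Akt2 (Entrez 11652, chr7:27591552-27640826), the isoform best known for insulin-stimulated glucose uptake, had 70.28, 70.6, 77.79 and 68.34 CPM in VC tumours and 64.58, 64.22, 63.38 and 65.44 CPM in miR-21-KD tumours. The groups did not overlap and the SD was 4.15 CPM in VC tumours and 0.851 CPM in miR-21-KD tumours. The log2 fold change of -0.16 (SE 0.07) did not pass the test, either without the block (adjusted p = 0.102) or with it (adjusted p = 0.131). Over the 9 members, the groups did not overlap for 3 that were higher and 1 that was lower, against 35.2% of all tested genes, 16.3% higher and 18.9% lower.

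**Figure D2:**
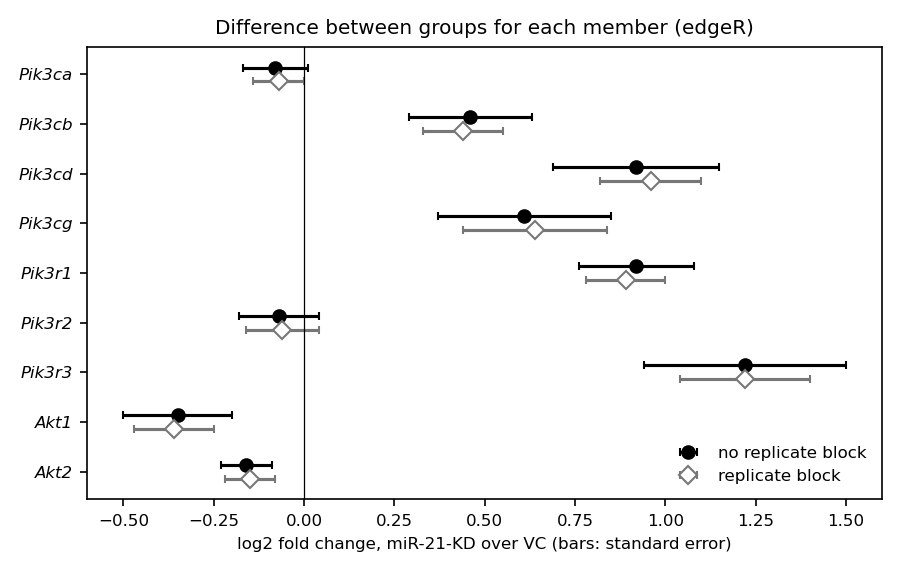
Log2 fold change (miR-21-KD over VC) of each member with its SE, from the quasi-likelihood test, without a block (filled circles) and with tumour number as the block (open diamonds). The estimates of the fits lie within 0.04 of each other for each member, and the SE with the block is 0.11 for Pik3cb, 0.20 for Pik3cg and 0.11 for Akt1, against 0.17, 0.24 and 0.15 without it.

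To compare the subunits with each other, CPM was divided by the length of the union of each gene's exons in kilobases. In VC tumours Akt1 was highest at 100.5 ± 11.8 CPM per kb (SD, n = 4). Pik3r2 at 13 ± 1.5, Pik3ca at 11.7 ± 1.03, Pik3cd at 10.7 ± 3.81 and Akt2 at 10.1 ± 0.581 CPM per kb followed, and the ranges of these 4 overlapped. Pik3r1 was below them at 6.36 ± 0.492 CPM per kb, then Pik3cg at 4.01 ± 1.34 and Pik3cb at 3.35 ± 0.511 CPM per kb, whose ranges overlapped, and Pik3r3 was lowest at 1.09 ± 0.300 CPM per kb. In miR-21-KD tumours Pik3cd, at 20.1 ± 3.24 CPM per kb, lay above every value of Pik3r2 (12.4 ± 1.05), Pik3r1 (12 ± 2.84) and Pik3ca (11.1 ± 0.526), which overlapped each other. Akt1, at 78.7 ± 15 CPM per kb, remained highest and Pik3r3, at 2.55 ± 0.745 CPM per kb, had the lowest mean.

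Each subunit's share of the summed CPM per kb of its class is given as a description, without a test. Among the 4 catalytic subunits, Pik3ca made up 43.2%, 44.1%, 46.1% and 28.1% in VC tumours and 23.2%, 31.7%, 28.6% and 23.7% in miR-21-KD tumours. Pik3cd made up 32%, 32.5%, 31.3% and 44.6% in VC tumours and 48.9%, 46.6%, 44.5% and 51.3% in miR-21-KD tumours. Pik3ca was thus the leading catalytic transcript in VC tumours 1 to 3, and Pik3cd in VC tumour 4 and in all 4 miR-21-KD tumours. The shares of Pik3cb (11.3% ± 0.39 and 10.9% ± 1.2, SD, n = 4) and Pik3cg (13.2% ± 2.2 and 14.5% ± 1.7) overlapped between the groups.

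Among the regulatory subunits, Pik3r2 made up 56.4%, 66%, 67.8% and 63.6% in VC tumours and 39.7%, 52.4%, 47.5% and 46.9% in miR-21-KD tumours, with no overlap. Pik3r1 made up 36.5%, 28.7%, 28.9% and 30.6% in VC tumours and 49.3%, 39.5%, 44.1% and 43.5% in miR-21-KD tumours, again with no overlap. Pik3r3 made up 5.37% ± 1.6 and 9.29% ± 1.3 (SD, n = 4), and its groups did not overlap either. The leading regulatory transcript was Pik3r2 in every VC tumour and in miR-21-KD tumours 2, 3 and 4, and Pik3r1 in miR-21-KD tumour 1. This order holds per kb only: on CPM, without division by length, Pik3r1 made up 48.7% to 57.4% in VC tumours and 60.4% to 69% in miR-21-KD tumours and led in all 8, and its groups again did not overlap. Akt1 made up 90.8% ± 0.74 of the summed Akt1 and Akt2 level in VC tumours and 89.5% ± 1.6 in miR-21-KD tumours, and the groups overlapped.

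**Figure D3:**
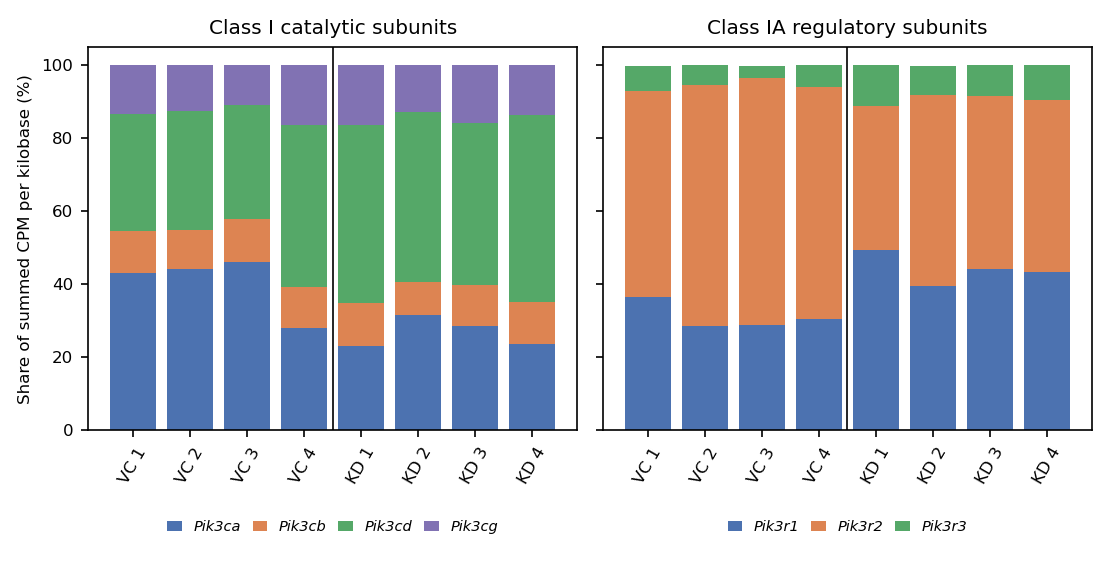
Share of each catalytic subunit (of Pik3ca, Pik3cb, Pik3cd and Pik3cg) and each regulatory subunit (of Pik3r1, Pik3r2 and Pik3r3) in the summed CPM per kb of its class, as stacked bars in percent for each of the 8 tumours. Pik3cd takes the largest catalytic share in all miR-21-KD tumours and in VC tumour 4, and the share of Pik3r2 falls from 56.4% or more in VC tumours to 52.4% or less in miR-21-KD tumours.

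Because Pik3cd and Pik3cg are leukocyte subunits, they were set against Ptprc, which encodes the pan-leukocyte antigen CD45. In whole tumours, fewer cells of a type and less RNA per cell cannot be told apart. Ptprc had 203, 132, 140.8 and 279.6 CPM in VC tumours and 481.7, 319.9, 322.7 and 375.9 CPM in miR-21-KD tumours, a log2 fold change of 0.99 (SE 0.25, adjusted p = 0.018) that lost its call without VC tumour 3 (adjusted p = 0.0536). The log2 ratio of Pik3cd to Ptprc was -1.79, -1.26, -1.48 and -1.45 in VC tumours and -1.73, -1.57, -1.57 and -1.41 in miR-21-KD tumours. These groups overlapped, with a difference of -0.07 (exact two-sided permutation test, p = 0.571, adjusted over both ratios 0.571). Relative to CD45, no difference in Pik3cd was therefore detectable between the groups.

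The log2 ratio of Pik3cg to Ptprc was -2.62, -2.20, -2.57 and -2.49 in VC tumours and -2.89, -3.01, -2.64 and -2.91 in miR-21-KD tumours. All miR-21-KD tumours were below all VC tumours, by 0.39 in the mean, with p = 0.0286 in the exact two-sided permutation test, the smallest that 4 against 4 can give, and 0.0571 after adjustment over both ratios. That test exchanges labels between tumour numbers. With exchange only within tumours of the same number, chosen after the data were seen, the ratio was lower in 4 of 4 pairs and the exact p was 0.125, the smallest that 4 pairs can give (0.25 after adjustment over both ratios). The same exchange gave an exact p of 0.625 for the ratio of Pik3cd to Ptprc. With the summed leukocyte list in place of Ptprc, the differences were -0.03 for Pik3cd, which did not pass the exact permutation test, and -0.35 for Pik3cg (exact permutation p = 0.0286, adjusted 0.0571).

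**Figure D4:**
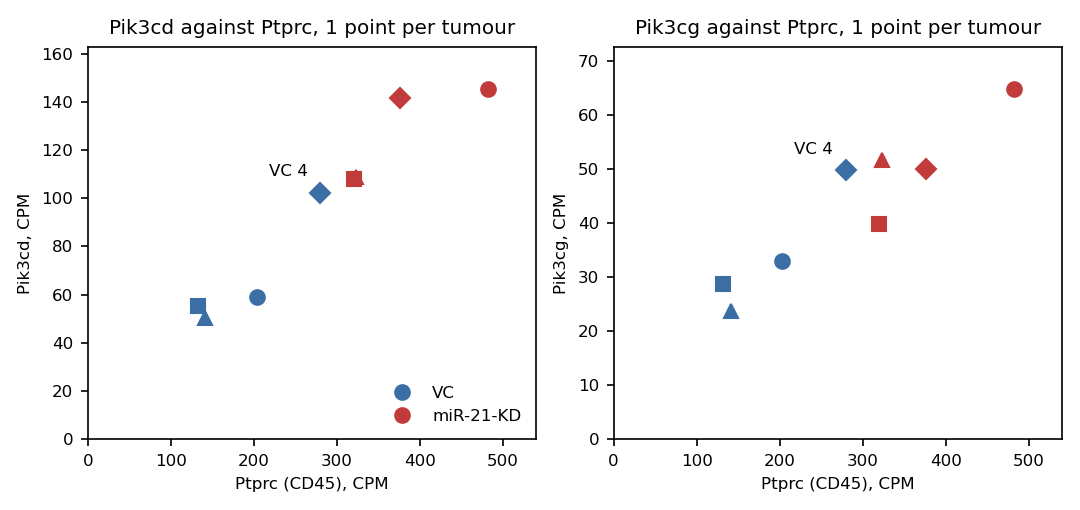
CPM of Pik3cd and of Pik3cg against CPM of Ptprc (CD45), 1 point per tumour, with VC and miR-21-KD tumours in separate colours and 1 marker shape for each tumour number. The miR-21-KD tumours, at 319.9 to 481.7 CPM of Ptprc, lie to the right of the VC tumours, and the ratio of Pik3cg to Ptprc is 0.124 to 0.16 in them against 0.163 to 0.218 in VC tumours.

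Markers of other cells that a tumour can hold were called more often in some lists than in others, and their counts stand beside 19.6% higher and 19.5% lower over all tested genes. Of the 6 leukocyte markers 5 were higher, with a summed level of 1434 to 2580 CPM in VC tumours and 3060 to 4337 CPM in miR-21-KD tumours. Of the 6 macrophage and monocyte markers 4 were higher (2665 to 4003 and 5054 to 8394 CPM), and of the 6 T cell markers 4 were higher (36.4 to 143.8 and 126.6 to 285.7 CPM). Of the 4 NK cell markers 1 was higher (10.7 to 53.9 and 40.3 to 77.9 CPM), and none of the 4 neutrophil markers (265.2 to 738.6 and 338.1 to 587.3 CPM) or of the 4 B cell markers (1.755 to 140.6 and 8.522 to 60.4 CPM) passed the test. Fibroblast and adipocyte markers rose too, at 4 of 5 (1582 to 3743 and 5491 to 11691 CPM) and 5 of 5 (85.2 to 319.8 and 428.5 to 1124 CPM). Endothelial markers were higher for 1 of 4 (314.8 to 569.2 and 479.5 to 687.2 CPM), and of 6 epithelial markers 4 were higher and 1, the keratin gene Krt18, was lower (1283 to 2204 and 796.8 to 1825 CPM). Krt18 was named after its value was seen. With the block, 2 neutrophil markers were higher, T cell calls went from 4 to 5 and NK cell calls from 1 to 2, and 2 epithelial markers were lower. Of all tested genes, 23% were higher and 22.1% lower in that fit. With each tumour omitted in turn, added after the data were seen, higher calls numbered 3 to 6 for leukocytes, 1 to 6 for T cells, 3 to 5 for macrophages and monocytes, 0 to 4 for NK cells, 0 to 2 for neutrophils, 2 to 4 for fibroblasts, 0 to 2 for endothelium and 3 to 4 for epithelium, and lower calls 0 to 1 for fibroblasts and 0 to 2 for epithelium, while all 5 adipocyte markers passed each time. The T cell and leukocyte counts were lowest without VC tumour 3 and highest without VC tumour 4. Calls over all tested genes moved as well, with 1449 to 3290 higher and 1487 to 3550 lower under these omissions, against 2826 and 2800 in the full fit. Without VC tumour 3, 1449 genes were higher, and without VC tumour 4, 2980 were. For B cells 0 to 1 passed, and their log2 fold changes, 0.28 to 0.81 with the block, were 2.42 to 3.52 without VC tumour 4, where the other high tumour, miR-21-KD tumour 4, was kept. A count of 0 in some tumour was found for B cell markers only, so the epithelial markers of a mammary carcinoma were present in all 8 tumours. The part that these cells had in the rises of Pik3cd, Pik3r1 and Pik3r3 was not tested.

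For each member that passed the test, the genes with the most similar pattern over the 8 tumours were found by the root mean square difference of centred log2 CPM. Those of Pik3cd were Sash3 (0.0669) and Vav1 (0.0759), those of Pik3r1 were Elmod2 (0.0806) and Myl9 (0.0837), and those of Pik3r3 were Cntln (0.122) and Nynrin (0.127).

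The other genes of the pathway, 59 in 7 lists written from general knowledge, had 57 that were tested, of which 13 were higher and 10 lower, with a median log2 fold change of 0.07. Their calls were 22.8% and 17.5% of those tested, beside 19.6% and 19.5% of all genes. Of these 23 calls, 13 held with any single tumour omitted (9 higher and 4 lower), and all 10 others were lost without VC tumour 2. These 10 were Gab2, Inpp4b, Phlpp2, Mtor, Mapkap1, Deptor, Mlst8, Rheb, Eif4ebp1 and Bcl2l11, of which Mlst8 was lost under all 8 omissions, Inpp4b and Deptor under 6, and Gab2 and Mtor under 5. With the block, 15 of the 57 pathway genes were higher and 12 lower, beside 23% higher and 22.1% lower of all tested genes in that fit.

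Of the 4 other class I partners, 2 rose and none fell, with a median of 1.02. Pik3r5, which encodes the p101 partner of p110gamma, had 29.13, 20.42, 21.52 and 46.67 CPM in VC tumours and 102.6, 58.17, 60.79 and 76 CPM in miR-21-KD tumours (log2 fold change 1.34, SE 0.29, adjusted p = 0.0116). Pik3r6, which encodes the p84 partner, had 8.481, 8.616, 7.645 and 13.24 CPM in VC tumours and 32.41, 18.47, 21.26 and 25.75 CPM in miR-21-KD tumours (1.37, SE 0.23, adjusted p = 0.00664). Both partners of p110gamma were therefore separated between the groups, beside the overlapping Pik3cg. Pik3ap1, the leukocyte adaptor BCAP, had 19.2 ± 4.47 and 31.4 ± 10.9 CPM (SD, n = 4; adjusted p = 0.054, and 0.0265 with the block). Pik3ip1, an inhibitor of p110, had 20.4 ± 5.38 and 18.3 ± 5.18 CPM (SD, n = 4; adjusted p = 0.642).

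The lipid and AKT phosphatases were called in both directions, with 3 of 8 higher and 3 lower. Inpp5d, the leukocyte phosphatase SHIP1, rose from 110.2 ± 24.6 to 193.2 ± 37.5 CPM (SD, n = 4; log2 fold change 0.81, SE 0.19, adjusted p = 0.0132). Inpp4a and Inpp4b, which dephosphorylate the lipid that SHIP1 makes, rose by 0.73 on the log2 scale (adjusted p = 0.00694) and 1.01 (adjusted p = 0.0352). Inpp5e, an enzyme of the primary cilium, fell by 0.76 (adjusted p = 0.00501), and Phlpp1 and Phlpp2, which dephosphorylate AKT, fell by 0.45 (adjusted p = 0.0128) and 0.47 (adjusted p = 0.02).

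Of the 8 adaptors and insulin or IGF receptors, 3 rose and none fell without the block: Gab1 by 1.21 on the log2 scale (adjusted p = 0.0085), Grb10 by 1.28 (adjusted p = 0.0154) and Gab2 by 0.63 (adjusted p = 0.0221). Gab1 and Gab2 are docking proteins that bind p85, and Grb10 is an adaptor that restrains insulin signalling. With the block the growth factor receptor gene Igf1r was lower as well (log2 fold change -0.57, adjusted p = 0.0367, against -0.52 and 0.104 without it). Of the 7 kinases and complex members around AKT, 1 rose and 3 fell. Mtor, the kinase of both mTOR complexes, fell by 0.32 (adjusted p = 0.0296), the mTORC2 subunit Mapkap1 fell by 0.35 (adjusted p = 0.0178), and the mTOR inhibitor Deptor fell by 1.00 (adjusted p = 0.0423). Mlst8, a subunit of both complexes, rose by 0.32 (adjusted p = 0.044), which was lost with the block (adjusted p = 0.0662). Pdpk1, which encodes PDK1, had 72.4 ± 8.27 and 92.8 ± 14.3 CPM (SD, n = 4; adjusted p = 0.056, and 0.0289 with the block).

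Among 15 AKT substrates and their effectors 2 rose and 2 fell. Tbc1d4, which controls glucose transporter traffic, rose by 1.21 (SE 0.17, adjusted p = 0.00523), and the translation repressor Eif4ebp1 rose by 0.46 (adjusted p = 0.0257). Tsc1, part of the complex that restrains mTORC1, fell by 0.52 (adjusted p = 0.00672), and Rheb, the GTPase on which that complex acts, fell by 0.34 (adjusted p = 0.0203). With the block Rps6kb1, which encodes an S6 kinase, was also lower (-0.28, adjusted p = 0.0254, against 0.0629 without it). Of the 11 tested FOXO target genes, which AKT keeps low by holding FOXO factors out of the nucleus, 2 rose and 2 fell, with a median of 0.20. Sod2, a mitochondrial superoxide dismutase, rose by 0.67 (adjusted p = 0.00571) and the transcription factor Klf2 by 0.74 (adjusted p = 0.0135). Sesn3, a stress-induced sestrin, fell by 1.55 (adjusted p = 0.00501), and the pro-apoptotic Bcl2l11 fell by 0.46 (adjusted p = 0.0203). With the block Fbxo32, a ubiquitin ligase gene of muscle wasting, was also higher (0.35, adjusted p = 0.0278, against 0.135 without it). Igf1r, Rps6kb1 and Fbxo32 were named after their values were seen. None of the 4 tested class II and III kinase genes passed the test, with a median of 0.08.

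**Figure D5:**
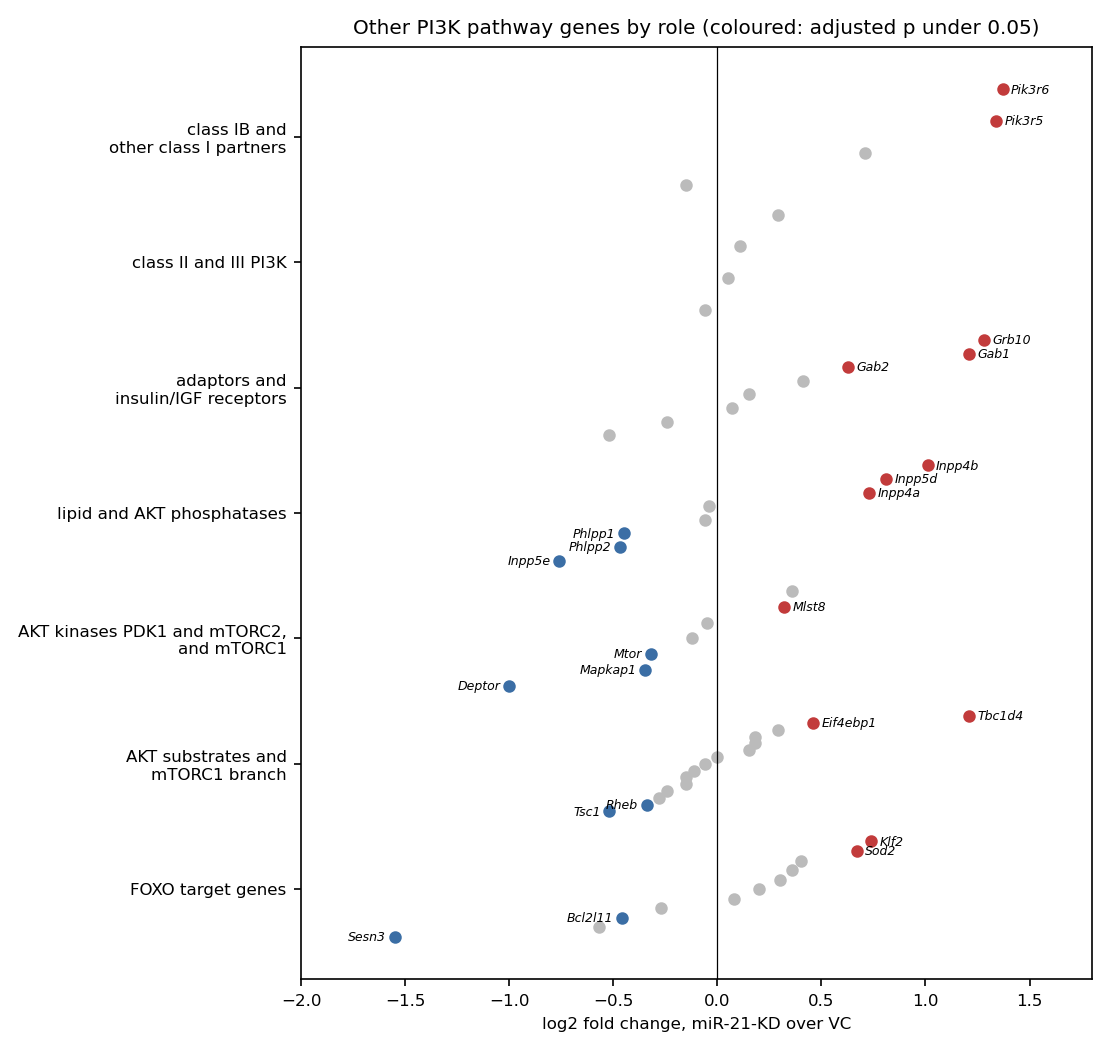
Log2 fold change (miR-21-KD over VC, horizontal axis) of the 57 tested other PI3K pathway genes, 1 point per gene, grouped by list, with the 13 higher and 10 lower calls coloured and named and the others in grey. Pik3r6 is highest at 1.37 and Sesn3 lowest at -1.55.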

How the data were processed

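For 8 whole tumours, the authors deposited unnormalised counts, keyed by Entrez gene identifier, in 1 table whose every column was used. Per the labels, Subread, featureCounts, edgeR and limma were used with build mm10 (GRCm38). Their versions, the annotation and the strand setting are not given in the sources used here, so overlapping genes on either strand may share reads. The sample labels give day 14 for recovery, and the methods of the study an earlier day. Symbols came from the RefSeq table of GRCm38.p6 (25275 of 27179 identifiers matched), and exon unions, 3′ UTRs and positions from GENCODE vM21 on the same build (exon length for 21572 identifiers).

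The groups were compared with edgeR 4.0.16 under R 4.3.3. The filter was filterByExpr (minimum count 10, minimum total 15), libraries were scaled by TMM, and the robust quasi-likelihood test was fitted across all 14382 genes kept. Each SE is the size of the estimate divided by the square root of its F statistic. Pairs of tumours of 1 group differed beyond sampling noise, with a chi-square per degree of freedom of 12.6 to 70.7. At these depths the precision is set by the spread between tumours more than by counting. The tests were also checked on simulated counts, where the main test found 51% of 2-fold and 90% of 4-fold changes. A gene that did not pass is therefore not shown to be unchanged.

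In both groups the labels count tumours from 1 to 4 but do not say what a number shares. Once each group's mean was subtracted, same-numbered tumours correlated across the groups at 0.272, 0.421, 0.175 and 0.376 (mean 0.311). The 12 other combinations averaged -0.105. Deviations from a group mean cancel out within the group, so a positive mean for some combinations forces a negative mean on the rest. The value of -0.105 is therefore no separate evidence, and other ways of matching the tumours were not compared. The number was used as a block in an alternative fit, a choice made from these correlations and not from the labels. The main calls and the main ratio tests do not use this pairing.

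The 9 members, the 7 pathway lists and the 10 marker lists were chosen with earlier results of these data known. The text names all members; Pik3r5, Pik3r6, Pik3ap1, Pik3ip1, Inpp5d and Pdpk1; the 3 genes of smallest adjusted p in each direction of each pathway list among those past the threshold; for each called member, the 2 nearest patterns; and Ptprc with the sum of each marker list. A few genes that the rule covers are not reported here, and the pathway lists were counted without them. Alternatives were DESeq2 1.42.0, limma-voom (limma 3.58.1), upper-quartile scaling, scaling by library size only, omission of the filter, a stricter one of 10 counts per tumour, the block, a test for changes above 1.5-fold and each tumour left out in turn. Ratios were compared with SciPy 1.17.1.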

Additional observations from a re-analysis of the deposited data

Results flagged for a closer look

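In groups of 4 tumours, the gap between the highest or lowest tumour and its nearest neighbour was divided by the range of the group and set against the 95% critical value of Dixon's test. Of 42 groups examined, 5 had a tumour past this value, and chance flags about 1 group in 20. Shares and ratios are computed from the same levels, so the groups are not independent and flags of the same tumour are not separate observations. The level of Pik3cd in VC tumour 4 was 102.1 CPM, far above the other VC tumours (gap over range 0.837). In the same tumour the share of Pik3cd among the catalytic subunits was 44.6% (0.909) and the share of Pik3ca was 28.1% (0.841), both near the miR-21-KD values. VC tumour 4 is also the control with the most Ptprc (279.6 CPM) and the highest sum of B cell markers (140.6 CPM), and the part of these cells was not tested. The level of Pik3r2 in VC tumour 1 was 45.06 CPM, below the other VC tumours (0.881). The share of Pik3cb in miR-21-KD tumour 2 was 9.05%, below the other miR-21-KD tumours (0.834).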

How the results depend on the processing

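No member changed direction under the 8 alternatives or with any tumour omitted, and 64 of 72 results under the alternatives and 66 of 72 under omissions stayed on the same side of the threshold. DESeq2 called 5 members (Pik3cb at 0.48 and Pik3cg at 0.63 added), and the block called 6 (Pik3cb at 0.44, Pik3cg at 0.64 and Akt1 at -0.36 added); the block changed no other member's call. A test for changes above 1.5-fold called 0 members by edgeR, with Pik3cd at 0.92 (adjusted p = 0.184), Pik3r1 at 0.92 (0.0983) and Pik3r3 at 1.22 (0.0911), 3 other pathway genes and 542 genes in all. With single tumours omitted, 2936 to 6840 genes were called, against 5626 in full; the low counts were without VC tumours 2 (3290) and 3 (2936) and miR-21-KD tumours 3 (3750) and 4 (3366). Members called ranged from 2 (without VC tumour 3) to 6 (without miR-21-KD tumour 2), and other pathway genes from 13 (without VC tumour 2) to 27, against 23. Log2 fold changes ranged from 0.35 to 0.57 for Pik3cb, 0.80 to 1.19 for Pik3cd, 0.46 to 0.85 for Pik3cg and -0.50 to -0.27 for Akt1. The log2 ratio of Pik3cd to Ptprc differed by -0.17 to 0.01, with 0.01 without VC tumour 2. Without division by length Pik3r1 led the regulatory subunits in all 8 tumours. The share of Pik3cb, which differed by -0.408 points per kb, differed by 0.116 points without that division. Per kb it differed by -0.678 to 0.198 points with omissions (0.198 without miR-21-KD tumour 2), an alternative added after the data were seen. The cause of these changes was not tested. The other ratio, of Pik3cg to Ptprc, differed by -0.47 to -0.30 with omissions, where 4 against 3 tumours cannot give an exact p under 0.0571.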

Other observations

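Within the miR-21-KD group the members did not vary evenly over the tumours. MiR-21-KD tumour 2 was the nearest of its group to the VC mean for 7 of the 9 members, and miR-21-KD tumour 1 was the farthest for 6. For Pik3r1 the distance on the log2 scale was 0.49 in miR-21-KD tumour 2 and 1.29 in miR-21-KD tumour 1, and for Akt1 it was 0.00 in miR-21-KD tumour 2. The same tumour lay nearest to the controls on the first principal component over all genes, at 7.1 against 45.6 to 76.5 for the other miR-21-KD tumours and -78.4 to -23.3 for VC tumours. The labels give no measure of the knockdown in single tumours, and its part in this order was not tested.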
